A study of Mus musculus with 6 samples.

Results

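A set of 10 genes known from cardiac muscle were followed in mouse lung tumors. These are Myh6, Myl7, Myl4, Sln, Nppa, Tnnt2, Tnni3, Actc1, Ryr2 and Mybpc3, chosen by name, and all 10 of them have a probe on the array, out of 36870 gene names in all. They are read by 19 probes. The tumors came from C57BL/6J mice carrying Ror1f/f (a floxed gene for a Wnt5a-binding membrane receptor), CAG-CreER (a Cre recombinase that acts once tamoxifen is given, under a promoter active in most cell types) and SPC-hEGFRdel746-750 (a mutant human EGFR under the promoter of surfactant protein C, which is active in alveolar epithelium). Both groups carried all 3 alleles. There were 3 samples labelled tamoxifen and 3 labelled corn oil, the solvent control, dosed between 16 and 20 weeks of age, and the tumors were taken at 20 weeks. Tamoxifen sample 1 was hybridised with oil sample 1, and so on, each such couple on 2 arrays with the dyes exchanged, which gives 6 readings per group and 12 readings per probe. The labels do not say whether a sample was 1 animal, 1 tumor or a pool, nor whether the samples are separate animals, so the p-values below measure only the spread between these samples.

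Cardiac muscle contracts by the pull of myosin (thick) filaments on actin (thin) filaments, with the troponins on the thin filament as the calcium switch and the ryanodine receptor as the channel that releases calcium from the sarcoplasmic reticulum. Atrial muscle uses its own forms of some muscle proteins, among them Myl7, Myl4 and sarcolipin, and secretes the hormone encoded by Nppa. In the mouse, cardiac muscle cells also sheathe the pulmonary veins and reach into the lung, so lung RNA can hold these transcripts. In tissue RNA such as this, fewer cells of a type and less RNA per cell cannot be told apart.

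In each channel of each array, 51.8% to 58.8% of all probes gave a signal well above background. Across genes, the 2 dye-swapped ratios of a couple had r from 0.76 to 0.79. The labelled tissue is lung tumor, and all 10 markers of alveolar epithelium on the list used here could be tested, including Sftpc and Nkx2-1, each well above background in 12 of 12 readings. The bright Ror1 probe had a mean log2 ratio of 0.40 ± 0.21 (SD, n = 3 couples; limma, adjusted p = 0.69), higher in the samples labelled tamoxifen. The floxed exon is not named in the labels, so this probe checks neither the deletion nor the labels.

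The cardiac genes included probes bright in every sample, others near the background, and others that were above it in a single sample. A probe is called well above background by the scanner software's own flag. Of the 19 probes, 7 had that flag in all 12 readings, another 5 in some readings and 7 in none. By gene, the probe with the highest mean signal was well above background in all 12 readings for 6 of the 10 genes (Myh6, Myl4, Nppa, Tnnt2, Actc1 and Mybpc3), in some for Myl7, Tnni3 and Ryr2, and in none for Sln. A gene was tested where that probe had the flag on both arrays in 2 or more couples, in the tamoxifen or in the oil channel. This left 8 of the 10 genes, without Sln and Ryr2, among 20475 genes tested. The array with oil sample 1 in Cy5 had a red signal of 124.8 on its negative control spots, against 63.49 to 64.41 on the other 5 arrays. Its readings stand to the right of the others for several undetected probes, such as Sln, where the spot was 1.75 times its local background and still not well above background by the flag.

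**Figure D1:**
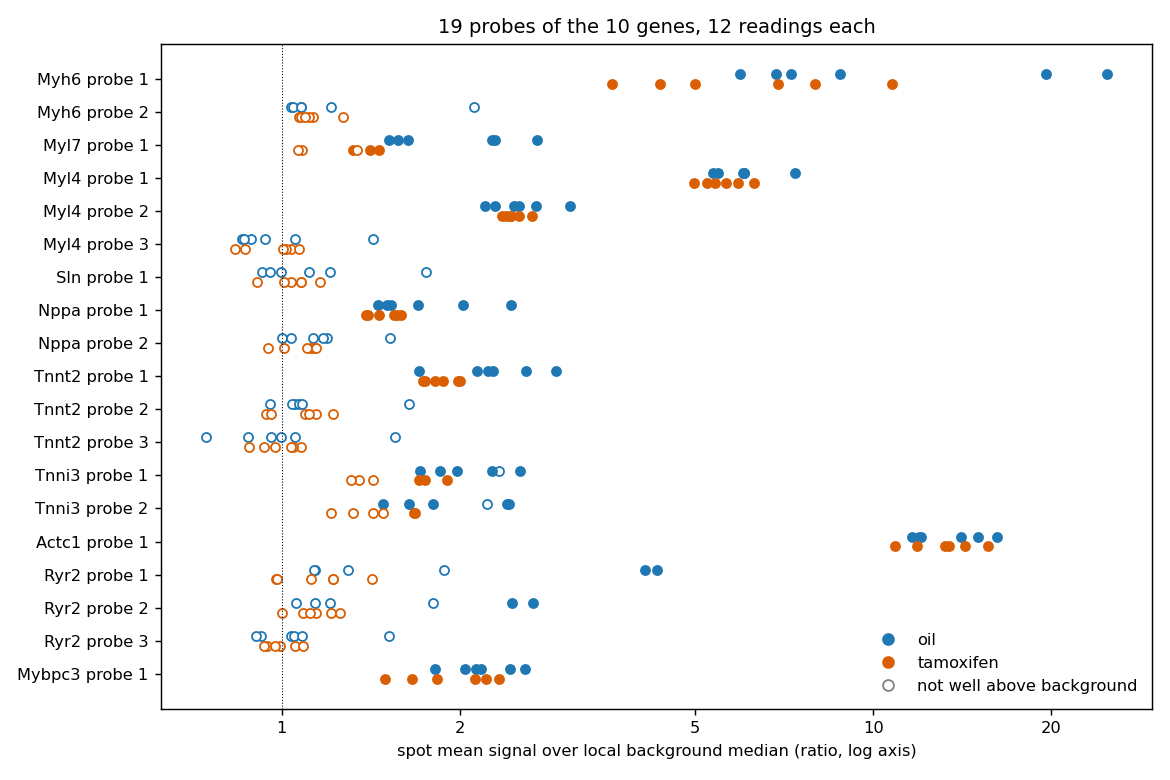
Each point is 1 reading of 1 probe, as the spot's mean signal over its local background median (a ratio, log axis), for the 19 probes of the 10 genes, with the brightest probe of a gene as probe 1. Filled points were well above background by the scanner flag and open points were not: Myh6 probe 1 spans 3.62 to 24.9 and Actc1 10.9 to 16.2, while Sln lies between 0.911 and 1.75.

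None of the 8 tested genes reached an adjusted p under 0.05 in limma, where their adjusted p ran from 0.69 to 0.99. Over the array 0 of 20475 genes passed (0%), the lowest adjusted p being 0.41. All 8 had a mean log2 ratio of tamoxifen over oil below 0, where 51.2% of tested genes did, although Myl4 and Actc1 lay just above 0 under other scalings and Myh6 without couple 2. Their median was -0.13, against -0.0039 over all tested genes, and it was -0.36 with the scanner software's log ratio and -0.068 without couple 2. The couples gave medians of -0.15, -0.15 and -0.054 for the 8 genes. In all 3 couples 3 of the 8 genes were below 0 (Myl7, Tnnt2 and Tnni3), against 16.4% of all tested genes, and 0 were above 0 in all 3. At an unadjusted p under 0.05 there was 1 gene of the 8 on the lower side, Myl7, against 4.01% of all genes tested. Myl7 and Tnni3 passed the filter through the oil channel alone, the channel in which they read higher, so these counts are descriptions. On the higher side there was none of the 8, against 3% of all genes. The 3 oil samples all lay above the 3 tamoxifen samples for Myl7 alone among the 8, which was so for 7.24% of all tested genes. For the same reason this is a description too.

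**Figure D2:**
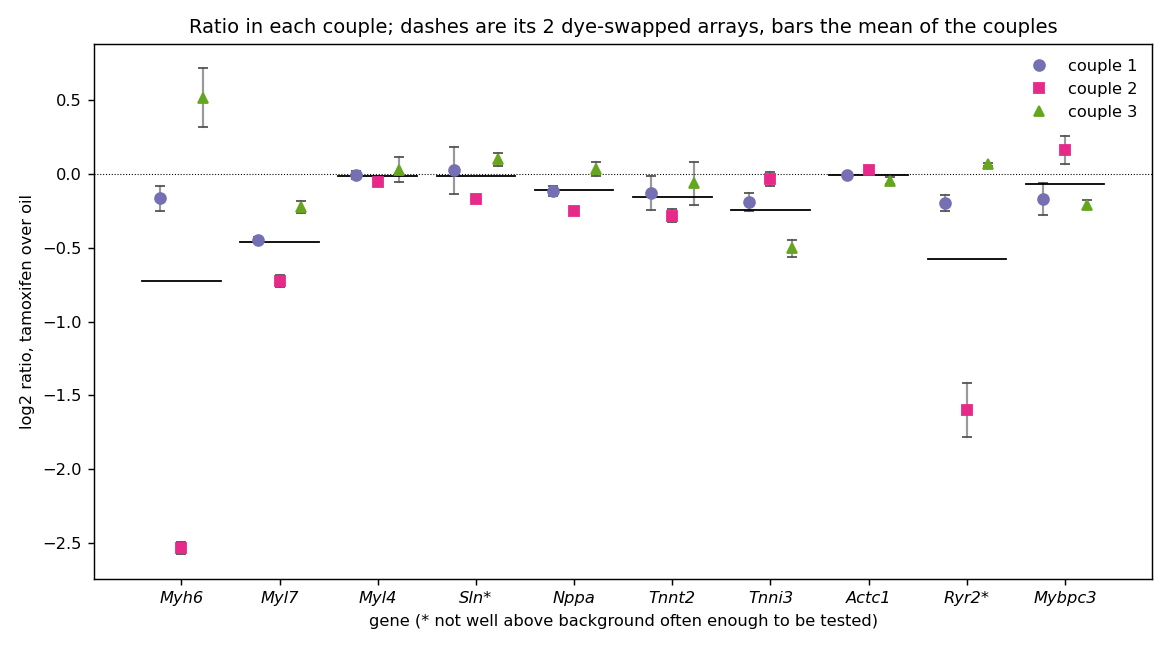
The y axis is the log2 ratio of tamoxifen over oil for the brightest probe of each gene, with 1 symbol per couple, dashes for its 2 dye-swapped arrays and a black bar for the mean of 3 couples. Myh6 and Ryr2 stand at -2.54 and -1.60 in couple 2 and between -0.20 and 0.52 in the other couples, where the Ryr2 value in couple 2 is against a tamoxifen sample at background and supports only a bound of at least 2.87-fold, while the couple symbols of Actc1 and Myl4 stay within 0.06 of 0.

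Myh6, the alpha myosin heavy chain that is the main cardiac motor of the adult mouse, varied the most between samples among the 10 genes. Its normalised log2 signal was 8.35, 7.65 and 8.95 in tamoxifen samples 1, 2 and 3, and 8.51, 10.18 and 8.44 in oil samples 1, 2 and 3. Oil sample 2 was the high one and tamoxifen sample 2, its array partner, the lowest, while the groups overlapped through the other 4. The couples had log2 ratios of -0.16, -2.54 and 0.52, averaging -0.73 ± 1.60 (SD, n = 3 couples; limma, SE 0.61, adjusted p = 0.79). In couple 2 the ratio was -2.49 with tamoxifen in Cy5 and -2.58 with tamoxifen in Cy3, a level 5.80-fold lower than in oil sample 2 on both dye orientations together. Only 7 of the 20475 tested genes were lower in that couple, and 0.083% of genes were over 4-fold lower in it. Without couple 2 the mean ratio of Myh6 was 0.18, on the other side of 0.

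The bright Myh6 probe lies at the 3' end of the transcript, on chr14:55560774-55560833 (mm9, minus strand), and a second probe lies near the 5' end, on chr14:55584132-55584191. A stretch of 30 bases of the 3' probe and all 60 of the 5' probe are shown because both are annotated to the same transcript and only the former gave signal; capitals mark the longest run that the 3' probe shares with the 3' probe of Myh7, its neighbour and closest relative.
Myh6 3' probe, bases 2 to 31: cacgacgaggaataacctctccagCAGACC
Myh6 5' probe: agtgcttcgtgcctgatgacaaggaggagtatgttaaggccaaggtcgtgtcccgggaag
The shared run is 6 bases long. It compares probe with probe, so it does not show whether the Myh6 probe could bind Myh7 RNA elsewhere. The 5' probe begins at base 308 of the transcript and the 3' probe at base 6003. The 5' probe was well above background in 0 of 12 readings, and its level lay between 6.06 and 6.22 in all 6 samples, oil sample 2 included (6.12). The RNA was copied from its poly(A) end with a poly dT primer, per the labels' protocols. The part of that step in the difference between the probes was not tested.

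Among other striated-muscle myosin heavy chains, Myh7, Myh7b and Myh8 had the sign of Myh6 in couples 2 and 3 and the opposite sign in couple 1. Myh7, the beta heavy chain of ventricle and slow skeletal muscle, stood at 13.65, 10.38 and 13.54 in the tamoxifen samples and 12.00, 11.67 and 10.92 in the oil samples. Tamoxifen samples 1 and 3 were the high ones, so its couple ratios were 1.65, -1.29 and 2.63 (mean 0.996 ± 2.04, SD, n = 3 couples; limma, adjusted p = 0.78). Myh7b, a slow-muscle relative, had couple ratios of 1.23, -0.74 and 1.68, and Myh8, the perinatal skeletal chain, 1.44, -1.14 and 1.91. Across the 6 samples the levels of Myh7b and Myh8 each correlated with Myh7 at r = 0.997 and with Myh6 at 0.203 and 0.253. These r describe 6 samples that share arrays in couples. The bright probe of Myh8 was well above background in 12 of 12 readings, while its other 3 probes were so in 0. A second Myh7b probe was likewise so in 0, and a second, dimmer Myh7 probe had couple ratios of 0.45, -0.44 and 1.01. The longest run that the bright Myh7b and Myh8 probes share with the 3' probe of Myh7 is 7 and 6 bases. These runs compare probes only, not a probe with the transcript of another gene. Whether the 3 probes read separate transcripts was not tested.

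Among the myosin light chains, Myl7, the atrial regulatory light chain, was the tested cardiac gene whose groups did not overlap. Its levels were 6.14, 6.41 and 6.35 in the tamoxifen samples and 6.58, 7.13 and 6.57 in the oil samples. Every oil sample was above every tamoxifen sample. The couples had ratios of -0.45, -0.72 and -0.22, averaging -0.46 ± 0.25 (SD, n = 3 couples; limma, adjusted p = 0.69). The unadjusted p of limma for Myl7 was 0.014. Myl7 passed the filter through the oil channel alone, in which it read higher, so this p and the gap between the groups are descriptions. All 6 arrays had it below 0, from -0.76 to -0.18. Its probe, on chr11:5796640-5796699 (mm9), was dim: the spot was 1.52 to 2.70 times its background in the oil readings and 1.07 to 1.46 times in the tamoxifen readings. All 6 oil readings were well above background, while of the 6 tamoxifen readings 3 were, 2 of them from tamoxifen sample 2. The log2 ratio of a probe this dim is pulled toward 0 by the offset added before the log. With the scanner software's own log ratio, which adds none, it was -1.67, a value that rests on tamoxifen readings at or near background.

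Myl4, the atrial essential light chain, was level across the 6 samples. Its bright probe read 8.14, 8.13 and 8.08 in the tamoxifen samples and 8.15, 8.18 and 8.05 in the oil samples. No sample stood apart, and the mean ratio was -0.011 ± 0.043 (SD, n = 3 couples; limma, adjusted p = 0.98). A dimmer Myl4 probe, well above background in 12 of 12 readings as well, gave 0.018 ± 0.10, and a probe for another Myl4 transcript was well above background in 0. The couple ratios of Myl4 lay between -0.056 and 0.028 where those of Myl7 lay between -0.72 and -0.22. The difference between both genes was not tested.

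**Figure D3:**
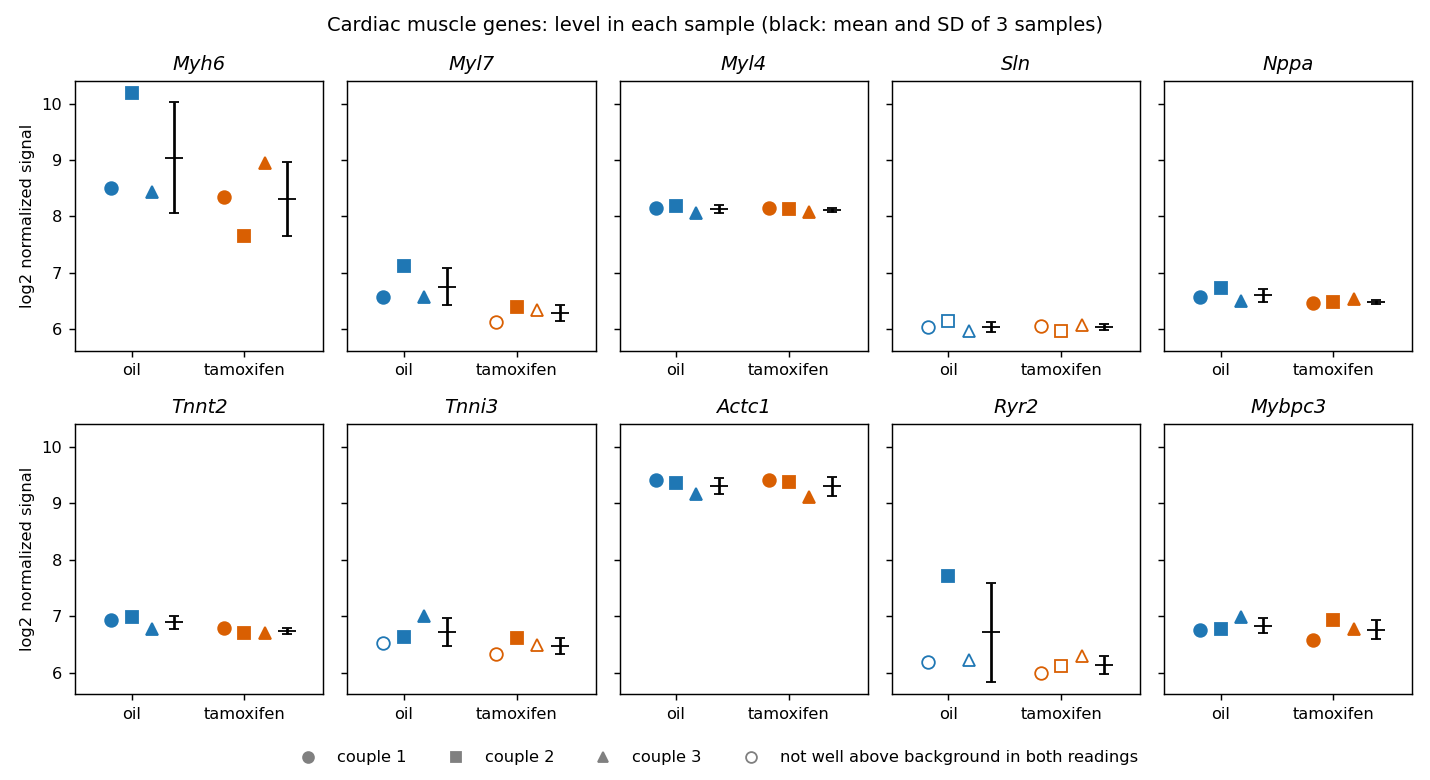
Each panel is 1 gene, read by its brightest probe, and the y axis is the log2 normalised signal of each of 3 oil (blue) and 3 tamoxifen (orange) samples, with the mean and SD in black and open symbols where a sample was not well above background in both readings. Oil sample 2 (blue square) stands at 10.18 for Myh6 and 7.72 for Ryr2, above the other 5 samples of each, and levels are not to be compared between panels because probes differ in brightness.

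On the thin filament, Actc1, the cardiac alpha actin, was bright and level. Its levels were 9.41, 9.37 and 9.11 in the tamoxifen samples and 9.42, 9.35 and 9.16 in the oil samples. Couple 3 was low in both of its samples, and the ratios were -0.0065, 0.025 and -0.046 (mean -0.0091 ± 0.035, SD, n = 3 couples; limma, adjusted p = 0.99). Tnnt2, the cardiac troponin T that ties troponin to tropomyosin, read 6.80, 6.71 and 6.70 in the tamoxifen samples and 6.93, 6.99 and 6.76 in the oil samples. The groups overlapped by a narrow margin, between oil sample 3 and tamoxifen sample 1. Its ratio was -0.16 ± 0.11 (SD, n = 3 couples; limma, adjusted p = 0.72), or -0.34 with the scanner software's log ratio and -0.096 without couple 2, and 2 probes for other Tnnt2 transcripts gave no reading well above background.

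Tnni3, the inhibitory subunit of cardiac troponin, was read by 2 probes that overlap, and they are shown because their readings are therefore not independent. Capitals mark the 9 bases they share (mm9, minus strand, chr7:4472043-4472102 and chr7:4471129-4472051; the latter span is longer than the probe, so that probe joins parts of the transcript that lie apart in the genome).
Tnni3 dimmer probe: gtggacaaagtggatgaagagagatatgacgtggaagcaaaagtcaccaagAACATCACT
Tnni3 brighter probe: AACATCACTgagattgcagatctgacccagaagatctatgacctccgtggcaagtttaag
The brighter probe read 6.33, 6.60 and 6.49 in the tamoxifen samples and 6.52, 6.64 and 6.99 in the oil samples. Here oil sample 3, not oil sample 2, was the high one, and the groups overlapped. The ratios were -0.19, -0.033 and -0.50 and averaged -0.24 ± 0.24 (SD, n = 3 couples; limma, adjusted p = 0.70). The mean was -0.86 with the scanner software's log ratio and -0.11 without couple 3. The dimmer probe gave -0.14, -0.080 and -0.65. The flag for signal above background was set in 2 tamoxifen and 5 oil readings of the dimmer probe, and in 3 and 5 of the brighter probe. For both probes the oil reading that missed the flag was that of the array with high red background.

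Mybpc3, the cardiac myosin binding protein C of the thick filament, read 6.58, 6.93 and 6.77 in the tamoxifen samples and 6.75, 6.77 and 6.98 in the oil samples. Its ratio changed sign in couple 2 (-0.17, 0.16 and -0.21) and averaged -0.071 ± 0.20 (SD, n = 3 couples; limma, adjusted p = 0.89). The mean was -0.16 with the scanner software's log ratio, and -0.022, -0.19 and -0.0031 without couple 1, 2 or 3. Over the 6 samples its level correlated with that of Tnni3 at r = 0.859 and with that of Myh6 at -0.258.

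Of the 2 calcium handling genes, Ryr2, the calcium release channel of the cardiac sarcoplasmic reticulum, was seen in a single sample. Its brightest probe, shown here because it lies far from the 3' end, at base 8735 of the transcript, and joins parts that lie apart on chr13:11792652-11793104 (mm9, minus strand), reads as follows.
Ryr2 probe: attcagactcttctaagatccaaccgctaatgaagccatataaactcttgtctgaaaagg
It read 5.99, 6.12 and 6.30 in the tamoxifen samples and 6.19, 7.72 and 6.23 in the oil samples. Oil sample 2 stood above the other 5, and it alone was well above background, in both of its readings. A second probe, at base 16311, gave the same picture: 6.12, 6.10 and 6.15 with tamoxifen and 6.12, 7.08 and 6.15 with oil, with the same 2 readings well above background. In couple 2 oil was at least 2.87-fold higher than tamoxifen by the former probe and at least 1.85-fold by the latter. These are bounds, taken against the lowest signal that counts as well above background. Over the groups no bound is given, because oil samples 1 and 3 were at background too and only 2 of 6 oil readings were measured. Ryr2 was not tested at the filter used. With no filter its adjusted p was 0.85 in limma. The remaining probe, for another Ryr2 transcript, was well above background in 0 of 12 readings.

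Sln encodes sarcolipin, the small inhibitor of the calcium pump in atrial muscle. Its probe was not well above background in any of the 12 readings, and its levels of 5.97 to 6.14 differed by less than 0.2 between samples. No fold is given for it.

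Nppa encodes atrial natriuretic peptide, the hormone of the atria that lowers blood volume and pressure. Its bright probe read 6.46, 6.48 and 6.53 in the tamoxifen samples and 6.58, 6.73 and 6.50 in the oil samples. Oil sample 2 was again the highest, and the groups overlapped. The ratios were -0.12, -0.25 and 0.034 (mean -0.11 ± 0.14, SD, n = 3 couples; limma, adjusted p = 0.79). The mean was -0.37 with the scanner software's log ratio, -0.18 without couple 3 and -0.041 without couple 2. The signal was 1.39 to 2.44 times the background. The 2.44 came from the array with oil sample 1 in Cy5, whose red control signal was high, and the next highest was 2.03. A second Nppa probe was well above background in 0 of 12 readings.

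Oil sample 2 had the highest of the 6 levels for 5 of the 8 tested genes (Myh6, Myl7, Myl4, Nppa and Tnnt2) and for both detected Ryr2 probes. Over all tested genes it was the highest for 14%. Oil sample 3 was the highest for Tnni3 and Mybpc3 and oil sample 1 for Actc1. No tamoxifen sample was therefore the highest for any of the 8. Over all tested genes, tamoxifen samples 1, 2 and 3 were the highest for 4535, 3147 and 2746 genes. Oil samples 1, 2 and 3 were so for 3215, 2876 and 3956. Myl7 and Tnni3 passed the filter through the oil channel alone, so the counts for the 8 are descriptions. The couple 2 ratio differed in size by gene, with -2.54 for Myh6, -0.72 for Myl7, -0.28 for Tnnt2, -0.25 for Nppa and -0.056 for Myl4. With the offset used here, Myh6 was the single tested gene of the 8 that was over 2-fold lower in any couple. With the scanner software's log ratio, Myl7 averaged -1.67 over the couples. Only 3 of its 6 tamoxifen readings were well above background, so that value is not a measured fold. The share of all tested genes over 2-fold lower was 0.908% in couple 1, 0.679% in couple 2 and 0.791% in couple 3.

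The genes closest to Myh6 over the 6 sample levels, among 2285 tested genes whose levels had an SD of at least 0.3, were Pifo (r = 0.985), Jund (0.976), Zfp385b (0.975), Fam107b (0.964) and Dipk2a (0.956). Their couple 2 ratios lay between -1.08 and -0.84, a smaller gap than that of Myh6. The mean level of the 8 tested cardiac genes was taken over centred but unscaled levels, so Myh6, which varied the most, weighed most. Closest to that mean were Bicdl1 (0.97), Ckmt1 (0.969), Anxa1 (0.958), Dynlrb2 (0.957) and Pifo (0.952). With 6 samples and this many candidates, these are descriptions of order.

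The proximal promoters of Myh6, Ryr2, Nppa and Myl7 are shown because these were the 4 genes whose level in oil sample 2 lay furthest above the next highest sample, by 1.23, 1.42, 0.15 and 0.55 on the log2 scale. Each line gives the 250 bases before the transcription start on the strand of the gene, from RefSeq on GRCm38.p6, a build that differs from that of the probe positions. Promoters of 9 of the 10 genes were matched by symbol. Capitals mark, on either strand, a TATA box (TATAAA), the binding site of GATA factors (NGATAA, where the first base is adenine or thymine), an M-CAT element bound by TEAD factors (CATTCC), an NKX2-5 site (TNAAGTG) or a CArG box, the SRF site.
Myh6 promoter (chr14:54966608-54966857, minus strand): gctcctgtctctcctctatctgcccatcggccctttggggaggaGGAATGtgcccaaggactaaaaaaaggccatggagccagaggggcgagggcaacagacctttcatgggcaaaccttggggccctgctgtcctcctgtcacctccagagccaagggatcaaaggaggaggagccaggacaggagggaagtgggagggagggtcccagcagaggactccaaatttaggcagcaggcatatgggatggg
Ryr2 promoter (chr13:12106946-12107195, minus strand): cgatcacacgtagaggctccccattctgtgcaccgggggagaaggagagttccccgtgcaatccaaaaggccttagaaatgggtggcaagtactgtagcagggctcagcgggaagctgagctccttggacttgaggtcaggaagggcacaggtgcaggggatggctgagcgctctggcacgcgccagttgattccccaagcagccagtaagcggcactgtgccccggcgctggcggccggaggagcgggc
Nppa promoter (chr4:148000472-148000721, plus strand): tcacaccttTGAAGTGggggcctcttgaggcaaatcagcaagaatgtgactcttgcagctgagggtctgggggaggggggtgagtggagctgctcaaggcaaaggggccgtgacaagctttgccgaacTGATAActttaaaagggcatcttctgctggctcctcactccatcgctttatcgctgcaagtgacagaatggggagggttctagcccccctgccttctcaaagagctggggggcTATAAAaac
Myl7 promoter (chr11:5898783-5899032, minus strand): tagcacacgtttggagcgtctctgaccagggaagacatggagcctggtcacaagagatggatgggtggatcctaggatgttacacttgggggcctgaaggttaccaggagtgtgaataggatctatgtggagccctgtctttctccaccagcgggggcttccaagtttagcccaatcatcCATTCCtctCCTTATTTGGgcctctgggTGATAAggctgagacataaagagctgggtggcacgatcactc
No motif is in all 4 promoters. That of Myh6 has an M-CAT element 206 to 201 bases before the start and no other match. That of Ryr2 has none of the 5 motifs, which says only that these letters are not in this window. Nppa has a TATA box 9 to 4 bases, a GATA site 122 to 117 bases and an NKX2-5 site 241 to 235 bases before its start. In Myl7 an M-CAT element, a CArG box and a GATA site follow each other 70 to 37 bases before the start, at 70 to 65, 61 to 52 and 42 to 37, and none of them overlap. Among the 10 promoters of the 9 genes (Tnnt2 has 2), a CArG box was in 2, those of Myl7 and Actc1, and in 1.47% of all 32851 promoters in the table. A GATA site was in 4 of the 10 and in 16.6% of all, an M-CAT element in 3 and in 12.6%, a TATA box in 1 and in 12.4%, and an NKX2-5 site in 1 and in 10.1%. Actc1, with its CArG box 47 to 38 bases before the start, spanned 9.11 to 9.42 over the samples. A match to such letters is no evidence of binding.

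Another 53 genes of heart muscle, in 6 lists by role, give the setting of the 10. All 53 were on the array, 24 could be tested, and 0 passed after adjustment. Of the 24, 15 had a ratio below 0 and 9 above, with a median of -0.025. At an unadjusted p under 0.05 in limma, 3 were on the lower side (Cox6a2, Corin and Hspb7) and 0 on the higher side. The shares over all tested genes were 51.2% below 0, and 4.01% lower and 3% higher at that p.

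Of 5 genes of ventricular or slow-twitch muscle, Myh7, Myh7b and Tnni1, the slow troponin I (-0.034 ± 0.064, SD, n = 3 couples), were well above background in all 12 readings by their brightest probes. Myl2 and Myl3, the ventricular light chains, were well above background in 0 of 12 readings, as were Tnnc1 (cardiac troponin C), Pln (phospholamban, the brake on the calcium pump), Nppb (the second natriuretic peptide), Ckm (muscle creatine kinase), Cox8b and Nkx2-5, a founding transcription factor of the heart. Of 16 other sarcomere and Z-disc genes 9 were tested, 6 of them below 0 and 3 above, with a median of -0.022. Tpm1, a tropomyosin of the thin filament, was at -0.028 ± 0.088 (SD, n = 3 couples), and Smyd1, a muscle methyltransferase needed for sarcomere assembly, at 0.11 ± 0.20. Of 12 genes of calcium handling and excitation 5 were tested, with 3 below 0. In all 12 readings 4 of the 12 were well above background, among them Atp2a2, the calcium pump of the reticulum, at -0.16 ± 0.034. Of 9 heart transcription factors 2 were tested, Mef2c at 0.12 ± 0.12 and Tbx5 at 0.055 ± 0.14. None of these named genes passed in limma.

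The lowest ratios among the 53 lay outside the contractile apparatus. Corin, the membrane protease that cuts the Nppa product into active hormone, read 7.21, 7.69 and 8.58 in the tamoxifen samples and 9.68, 10.24 and 9.59 in the oil samples. All 3 oil samples lay above all 3 tamoxifen samples, which was so for 7.24% of all tested genes. Its couples had ratios of -2.47, -2.55 and -1.01 (mean -2.01 ± 0.87, SD, n = 3 couples; limma, adjusted p = 0.69). Unadjusted, the limma p of Corin was 0.0023. When limma took all 6 arrays with couples as a replicate block, its adjusted p was 0.023, and 0.060 when a dye term was added to that block, within 0.023 to 0.96 over all settings tried. The block counts the 2 dye-swapped arrays of a couple as separate observations, although a swap is not a new sample. Only 3 couples stand behind these smaller p-values. A second Corin probe gave -1.12, -1.51 and -0.55. Its substrate gene Nppa had -0.12, -0.25 and 0.034 in the same couples.

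Cox6a2, the muscle form of a cytochrome c oxidase subunit, read 10.96, 10.92 and 10.70 in the tamoxifen samples and 12.62, 12.79 and 12.76 in the oil samples. The samples within each group lay close together, and the couples were at -1.65, -1.87 and -2.07 (limma, adjusted p = 0.41). The replicate block gave Cox6a2 an adjusted p of 0.00019 in limma, 0.0014 with the dye term and 0.0095 with the channels taken apart, within 0.00019 to 0.96 over all settings tried. Here too the block counts dye swaps of 3 couples as observations. Myh6 in the same couples was at -0.16, -2.54 and 0.52. Hspb7, a small heat shock protein of heart muscle, was at -0.44, -0.80 and -0.14 (limma, adjusted p = 0.69). Its mean of -0.46 was -1.01 with the scanner software's log ratio and -0.29 without couple 2. Fabp3, a fatty acid carrier, was at -0.24 ± 0.50 and Cox7a1, another oxidase subunit, at -0.0023 ± 0.19 (SD, n = 3 couples). The Hspb7 values have the same order of couples as the ratios of Myl7, and also as those of Myh6, Myl4, Tnnt2 and Nppa. Tnni3, Actc1 and Mybpc3 had other orders. With 3 couples such an order is a description only.

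**Figure D4:**
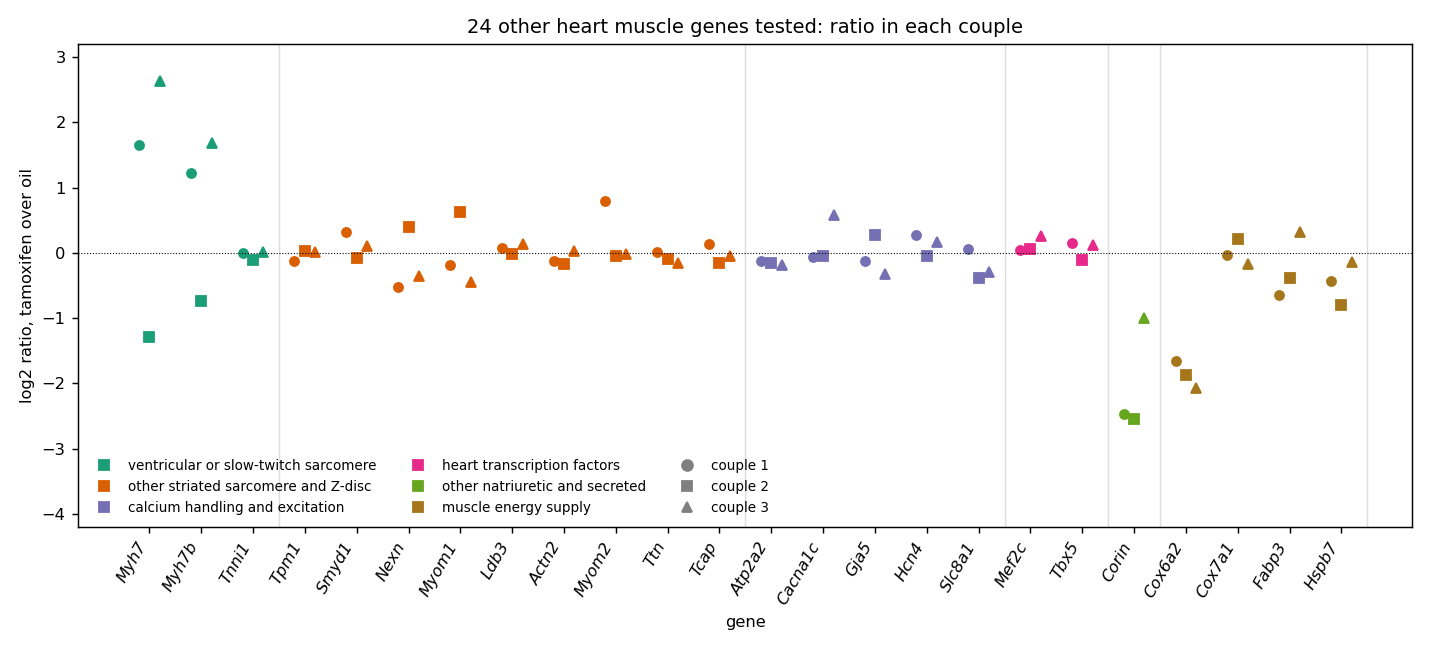
The y axis is the log2 ratio of tamoxifen over oil in each couple for the 24 other heart muscle genes that were tested, coloured by list. Myh7 and Myh7b spread from -1.29 to 2.63, Corin and Cox6a2 lie below -1 in every couple, and the other 20 genes lie within 1 of 0.

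Markers of other tissues that a lung sample could hold were read in the same way. Of 20 skeletal muscle genes 12 were tested, 7 below 0 and 5 above, with a median of -0.042 and 0 past the threshold. In all 12 readings 8 of the 20 were well above background, among them Myh8, Tnni2 (a fast troponin I), Ryr1 (the skeletal ryanodine receptor) and Acta1 (the skeletal actin), and 5 were so in none, among them Myod1, Myog and Myh1. The summed signal of the list was 1952 to 2908 in the tamoxifen samples and 2088 to 2273 in the oil samples, with oil sample 2 at 2273. Myh8 weighed heavily in that range, at 10.41, 7.70 and 10.25 on the log2 scale in tamoxifen samples 1, 2 and 3. Of 8 smooth muscle genes 7 were tested, 6 of them below 0 (Acta2, the smooth muscle actin, at -0.11 ± 0.15 and Tagln, an actin-binding protein, at -0.015 ± 0.13), and the list summed to 12091 to 14034 with tamoxifen and 12497 to 14651 with oil, where oil sample 2 was the highest. The cardiac list itself summed to 1641 to 1797 with tamoxifen and to 1846, 2686 and 1730 in oil samples 1, 2 and 3. Myh6 weighed heavily in the sum of oil sample 2, where it stood at 10.18 on the log2 scale.

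Of 10 alveolar epithelial markers 9 were below 0, with a median of -0.24, and 4 had an unadjusted p under 0.05 on the lower side (0 after adjustment). Over all tested genes the shares are 51.2% below 0 and 4.01% lower at that p. In all 3 couples 5 of the 10 were below 0, against 16.4% of all tested genes. Their summed signal was 594908 to 604736 in the tamoxifen samples and 717783 to 745895 in the oil samples, so the sums did not overlap. Surfactant genes such as Sftpc, the brightest of the list, weigh most in these sums. Among single tested genes, 7.24% had all 3 oil samples above all 3 tamoxifen samples. Of 5 endothelial markers 5 were above 0 on the mean of the couples (median 0.10), with overlapping sums of 3592 to 4364 and 2760 to 4031. Their couple medians were -0.16, 0.14 and 0.32, and 1 of the 5 was above 0 in all 3 couples. Of 6 mesothelial markers 3 were tested, all 3 below 0, with sums of 623 to 689 and 582 to 1450 and oil sample 2 the lowest of all 6. Of 7 fat markers 2 were tested, both below 0 on the mean, with Adipoq and Ucp1 at 0 of 12 readings and oil sample 2 the lowest of the oil samples. The part of any of these tissues in the levels of the cardiac genes was not tested.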

How the data were processed

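The deposited scanner files give each spot's intensity (mean foreground and median local background per channel) with no normalization, flags of 0 or 1, and a log10 ratio of Cy5 over Cy3 after background subtraction and dye normalization, per the file headers (made, per the submitters' processing notes, with Agilent Feature Extraction 12.0.3.1). A series-wide deposited table gives Cy5 over Cy3 on the log2 scale. Its columns ran at 3.32 to 3.33 times the log10 ratio of the same array (r from 0.977 to 1) with medians of 0.137, -0.136 and -0.0642 on the tamoxifen-in-Cy5 arrays of couples 1, 2 and 3, while those of the dye-swapped arrays were 0.127, -0.153 and -0.00546, so scale, centring and direction are known. The sources used here do not give the submitters' statistical test.

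From the intensities, limma 3.58.1 under R 4.3.3 corrected the background of all 62976 spots (normexp, offset 50) and applied loess within arrays, giving the 3671 control spots weight 0. Outlier spots (89 to 132 per array) were left out, 0 spots were saturated, and spots of a probe were averaged (56605 probes). All ratios were turned to tamoxifen over oil, then averaged over a couple's 2 arrays, leaving 3 replicates. They were tested two-sided against 0 with lmFit and eBayes, adjusted by Benjamini-Hochberg over 20475 genes, 2 having been dropped for a missing spot. Sample levels are log2 signals after loess and Aquantile normalization, as the mean of both dyes. The code was tested on simulated data. The number of arrays limits the precision (median SE of a gene 0.098).

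Pairing comes from the hybridisation of same-numbered samples to shared arrays. Their deviations from the group means correlated at 0.095, 0.16 and 0.16. For a probe at background in 1 sample of a couple, the bound sets the mean signal of the brighter sample against a floor. On each array the floor is its lowest signal well above background or, if higher, the signal of the probe. Summed signals of a list are sums of normalised signals of its tested genes, on a linear scale, one probe each, so the brightest probes weigh most.

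All 10 cardiac genes are named, with their other probes. From each further list up to 3 tested genes of highest mean signal, and Cox6a2, Myh7, Myl2 and Myl3, are named. Hspb7, the other heart genes at background and the defining markers of other tissues were singled out after their values were seen. The genes, lists and motifs were chosen with earlier results of these data known. Of 17 other settings tried, 2 were added after the data were seen. Probe positions are on mm9, per the file headers, with no annotation of exons for that build used here.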

Additional observations from a re-analysis of the deposited data

How the results depend on the processing

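None of the 8 tested genes passed the threshold under any of the 17 other settings tried (limma, lowest adjusted p = 0.15, Myl7 with the couple as a replicate block). Their median ratio, -0.13, was -0.20 with a normexp offset of 16, -0.36 with the scanner software's log ratio and likewise with the deposited log2 ratios, which add no offset, -0.067 with the mean over all probes of a gene, and from -0.15 to -0.068 with each couple left out, the last without couple 2. With a filter of all 12 readings 6 genes were left, 1 of them below 0 in all 3 couples. Of the 8 genes, 5 kept their sign throughout. Myh6 ran from -1.35 without couple 3 to 0.18 without couple 2. Myl4 reached 0.0115 with the scanner software's and the deposited ratios, 0.013 with the mean over probes, 0.0164 with tamoxifen in Cy5 only, and -0.031 to 0.0112 with each couple left out. Actc1 reached 0.0032 with the scanner software's and the deposited ratios, 0.0098 with median centring, and, with each couple left out, ran from -0.026 to 0.0092, the latter without couple 3. The cause was not tested. Myl7 ran from -1.67 to -0.33. Corin and Cox6a2 kept their sign in all 17 settings. Over all genes the count past the threshold was 56 with the couple as a replicate block, 9 when a dye term was added to that block (chosen after seeing the data), and 1 with the channels apart and no replicate block. The 56 and 9 come from fits that count dye-swapped arrays as separate observations, although only 3 couples stand behind them. The signal of most cardiac probes was under 3 times the background, which limits how small a ratio could be seen.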
